A study of Mus musculus with 18 samples.

Results

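Expression of 10 genes that modify the severity of spinal muscular atrophy (SMA), or act downstream of the survival motor neuron protein SMN, was followed in the mouse spinal cord. They were Pls3, Coro1c, Pfn2, Rock2, Ncald, Agrn, Zpr1, Tia1, Tmem41b and Uba1, chosen by name for their known links to SMA, with earlier results of these data known. All 10 were found among 58570 gene loci, each in 1 row of the expression table. Whole cords were taken from SMNΔ7 mice at postnatal day 2 (P2), P6 or P10, from homozygotes with the disease (SMA) or heterozygotes as controls, which makes 6 groups of 3 libraries. As background, mice of this line carry human SMN2 and SMNΔ7 transgenes, and affected pups lack mouse Smn1. The sex of the mice and the number of mice behind a library are not given in the sources used here. The table holds 1 combined value per gene and group, in FPKM (sequenced fragments relative to transcript length and library size), with a model interval by the authors. No spread between libraries can therefore be given, and an error below is the standard error derived from that interval.

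SMA is caused by too little SMN, a protein that assembles the RNA and protein particles of the spliceosome, and motor neurons of the spinal cord are the cells most affected. Some people who lack SMN1 stay mild or unaffected because another gene alters how their motor neurons cope, and PLS3 and NCALD were found in such families. The genes described here act at several points: on actin filaments in axons and nerve endings, on calcium and vesicle uptake, at the nerve-muscle synapse, on RNA and SMN itself, in membranes of the endoplasmic reticulum, and on ubiquitin.

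The groups were first checked against their labels. Smn1, the mouse gene for SMN, had FPKM 2.70, 4.46 and 3.54 in controls at P2, P6 and P10, and 0.0210 in SMA at P2, while it was listed at 0 in SMA at P6. In the group labelled SMA at P10 it had FPKM 2.82, or 79.8% of the control value, so in Smn1 that group goes against its label. These Smn1 values rest on few estimated fragments, 20.2 in SMA and 25.9 in control at P10. Their intervals were wide, 0 to 6.08 and 0 to 8.12. Markers of mature oligodendrocytes, summed over 9 of 10 listed genes, had FPKM 259, 1802 and 7693 in controls at the 3 ages, and 3475, 2035 and 4310 in SMA, so the SMA group at P2 also stands apart. Mbp, the major myelin protein gene, is the most abundant of them. Spinal Hox genes summed to FPKM 54.8 to 64.7 and motor neuron markers to 45.3 to 64.4, so defining markers of the cord were present in every group. The motor neuron markers summed to 63.6, 61.1 and 64.4 in controls and to 50.3, 55.1 and 45.3 in SMA at P2, P6 and P10. In whole tissue, fewer cells of a type and less RNA per cell cannot be told apart. Estimated fragments totalled 6881671 to 7386338 per group, with 130 to 2823 for the 10 genes.

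Within this set, Pls3 varied most between groups, and each of the other 9 genes spanned at most 1.41-fold. From the lowest to the highest of the 6 groups, Pls3 spanned 2.26-fold, Coro1c 1.41-fold, Zpr1 1.34-fold and Uba1 1.33-fold, and the smallest span was 1.13-fold for Agrn. Over 8326 gene loci at FPKM 5 or more in every group, the median span was 1.31-fold. A span as large as that of Pls3 was found in 3.95% of these loci, and a span as large as that of Agrn in 93.7%. None of the 10 genes passed the test in the comparisons made, which set the genotypes side by side at P2, P6 and P10, set P10 beside P2 within a genotype, and took the change of the SMA difference from P2 to P10. For each gene the authors' intervals of all 6 groups overlapped. Intervals of SMA and control were apart for 0 of 10, against 0.23%, 0.117% and 0.0794% of genes tested at P2, P6 and P10, and those of P2 and P10 for 0 of 10, against 1.36% in controls and 0.11% in SMA.

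**Figure D1:**
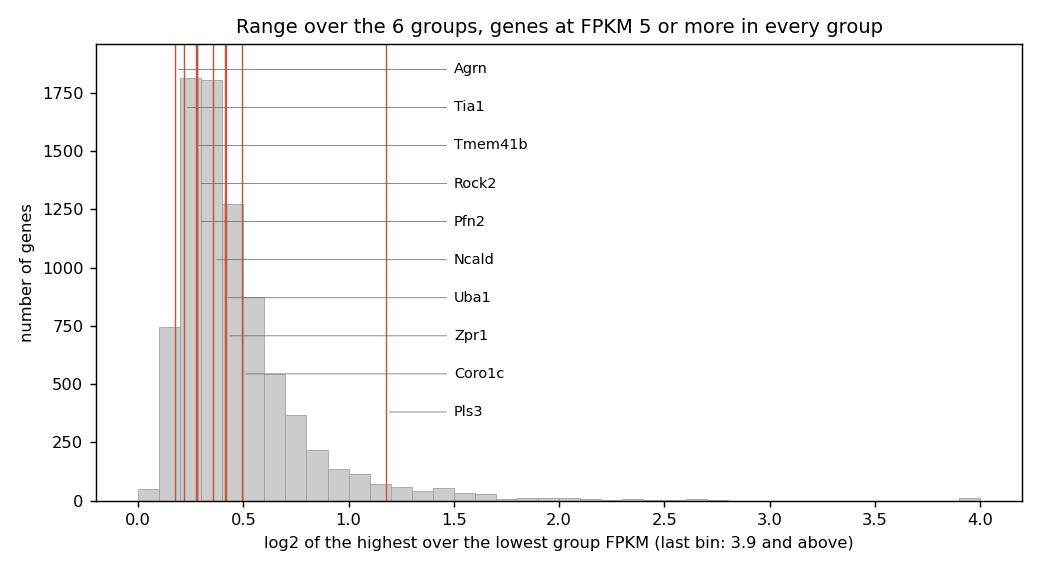
The grey bars count gene loci by their span over the 6 groups, as the log2 of the highest over the lowest group FPKM, and red lines mark the 10 genes. Pls3 lies in the right tail at 1.18, while the other 9 lie between 0.18 and 0.49.

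Mean levels over the 6 groups ordered the genes as Pfn2 (FPKM 173), Uba1 (68.8), Tia1 (59.9), Ncald (47.6), Agrn (40.2), Coro1c (25.1), Tmem41b (24.7), Rock2 (13.6), Pls3 (11.4) and Zpr1 (6.17). Pfn2 was above Uba1 in 6 of 6 groups, by 2.52-fold on average, yet their intervals overlapped in all of them. For each of the other 8 neighbouring pairs in this order the intervals overlapped in 6 of 6 groups too, and Coro1c was above Tmem41b in only 2. The rows of Ncald and Tia1 hold other genes as well. Ncald was joined with the noncoding Gm15941, and Tia1 with C87436 and Gm44790, so their levels are those of the joined rows. The row of Pfn2 spans 201144 bases, against 6185 for the annotated gene, and the span also covers Rnf13, which could have shared fragments with it.

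**Figure D2:**
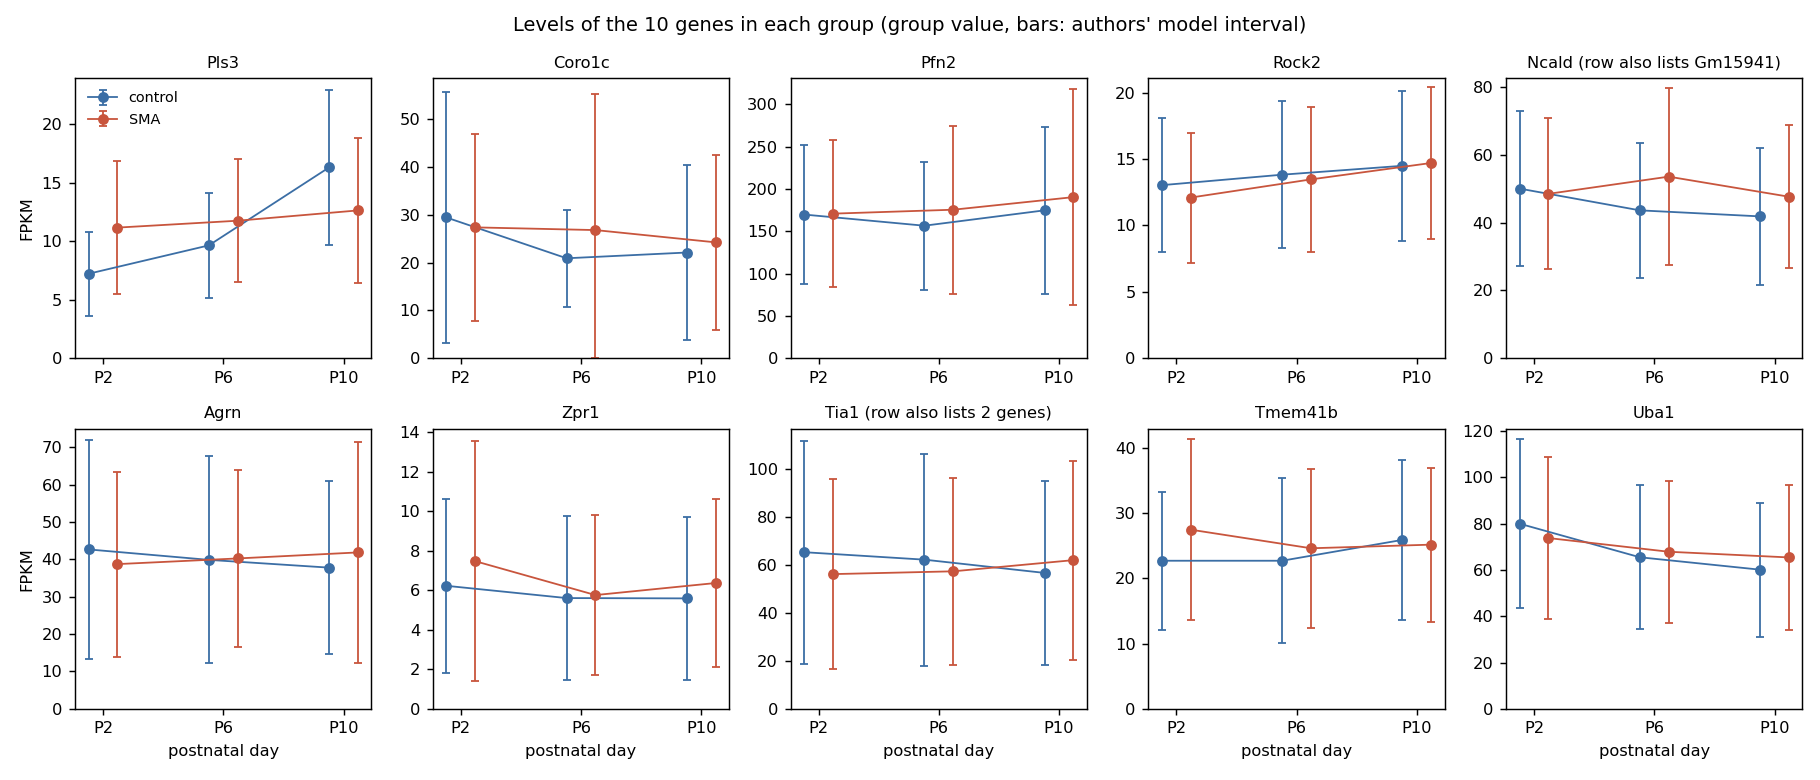
Each panel plots the FPKM of 1 gene against postnatal day for control (blue) and SMA (red), with 1 group value per point and the authors' model interval as bars. Pls3 in control goes from 7.21 to 16.3, while its SMA values stay between 11.2 and 12.6, and the intervals of the groups overlap in every panel.

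A group of 4 genes acts on actin. Pls3 encodes plastin 3, which bundles actin filaments, and high PLS3 protects some people who lack SMN1. It lies on the minus strand of chromosome X from 75785654 to 75875182 (ENSMUSG00000016382.15, GRCm38) and no other annotated gene overlaps it. In control cords Pls3 had FPKM 7.21, 9.63 and 16.3 at P2, P6 and P10, with 189, 267 and 437 estimated fragments. In SMA cords it had 11.2, 11.7 and 12.6, with 294, 300 and 320 fragments. Every SMA value therefore lay between the control values of P6 and P10, above the control of the same age at P2 and P6 and below it at P10.

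At P2, Pls3 was 1.55 times the control value in SMA (log2 ratio 0.63 ± 0.53, 95% interval -0.40 to 1.66). At P6 the log2 ratio was 0.29 ± 0.47 and at P10 it was -0.37 ± 0.47. None of these was called by the z test, with an adjusted p of 1.00 at each age. From P2 to P10 the log2 ratio in controls was 1.18 ± 0.47 (unadjusted p = 0.0131, adjusted p = 0.681), and in SMA it was 0.18 ± 0.52. The SMA difference at P10 minus that at P2 was -0.998 ± 0.705 on the log2 scale, which was not called. It is built on the group labelled SMA at P10, which goes against its label, and on SMA at P2, which stands apart, so it is a difference between these groups and not a test of the genotypes' courses. Of all genes tested, 14.5% had a value as far from 0 in that comparison. If the interval is read as that of 1 of 3 libraries, Pls3 is called in controls between P2 and P10 (adjusted p = 0.000897). That reading called 920 of 19956 genes tested in this comparison, so the call is not particular to Pls3.

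Pls3 is the only one of the 10 genes past 1.5-fold in any of these comparisons. It was past it at P2, between P2 and P10 in controls, and in the change of the SMA difference. The share of all tested genes past 1.5-fold was 13.2%, 10.4% and 14.3% between genotypes at the 3 ages, 29.1% between P2 and P10 in controls, 18.9% in SMA and 32.6% for the change. The direction of the Pls3 difference was that of mature oligodendrocyte markers, of which 9 of 9 were higher in SMA at P2 (median log2 ratio 3.81), 8 of 8 tested at P6 (0.17) and 0 of 9 at P10 (-0.78). The astrocyte markers with rows of their own had medians of 1.41, 0.19 and -0.53, and those of Schwann cells 0.35, 0.44 and -1.08, each with all their genes higher at P2 and P6 and lower at P10. Endothelial markers were higher for 5, 1 and 0 of 5 genes at the 3 ages, with medians of 0.48, -0.24 and -0.49. Microglial markers were higher for 5, 3 and 2 of 5, and those of fibroblasts and meninges for 1, 5 and 0 of 5. General neuron markers were higher for 2, 4 and 3 of 6, with medians of -0.15, 0.10 and 0.02. Motor neuron markers were higher for 2 of 6, 2 of 6 and 1 of 7 tested, with medians of -0.25, -0.25 and -0.57. The part of these cell types in the Pls3 values was not tested. Of 6 skeletal muscle markers, 3 of 3 tested at P2 and 2 of 2 at P6 were higher in SMA, and their summed level was at most FPKM 12.8, with Ckm, Myh3 and Myog under 1 in every group.

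**Figure D3:**
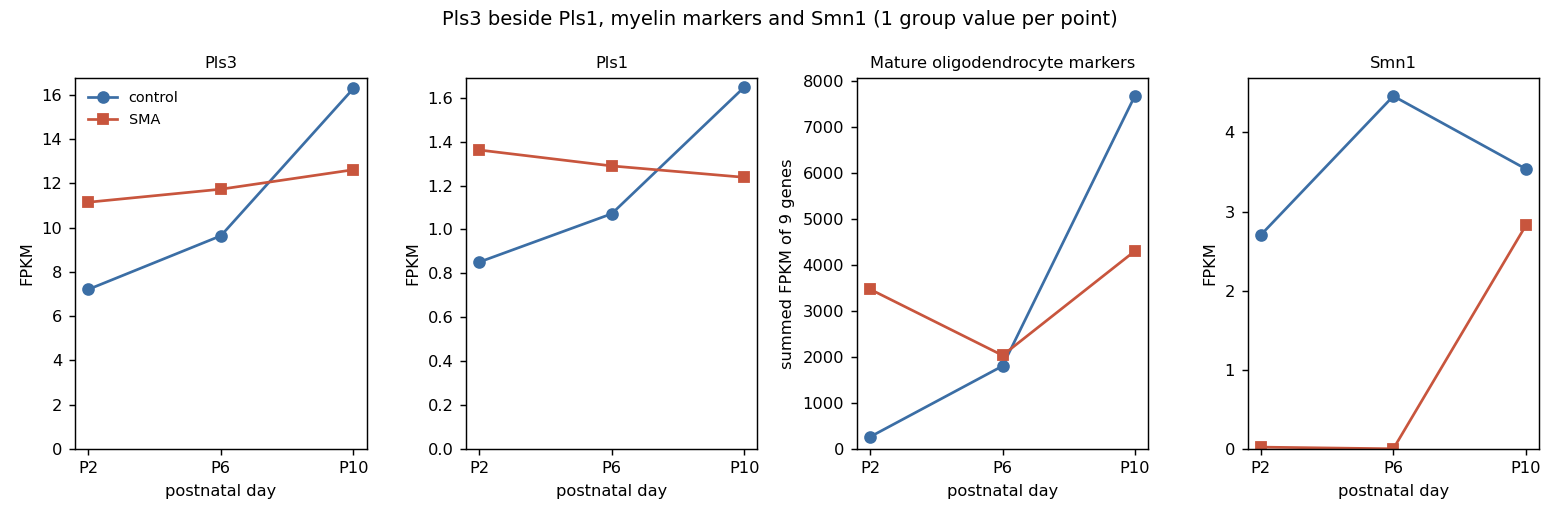
FPKM against postnatal day is plotted for Pls3, for its relative Pls1 and for Smn1, and as a sum for 9 mature oligodendrocyte markers, with blue circles for control and red squares for SMA, 1 group value per point. The SMA values are above control at P2 and below it at P10 in the Pls3, Pls1 and oligodendrocyte panels, and Smn1 in SMA is 2.82 at P10.

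Among 6772 protein-coding genes at FPKM 5 or more in every group, Itpkb and Dusp15 had the profiles most like that of Pls3 over the 6 groups. Their log2 profiles, each centred on its own mean, differed from that of Pls3 by a root mean square of 0.03 and 0.05. Itpkb, a kinase of inositol trisphosphate, had FPKM 5.49, 7.74 and 12.5 in controls and 8.82, 8.84 and 9.73 in SMA. Dusp15, a protein phosphatase, had 9.62, 13.3 and 22.4 in controls and 15.2, 14.8 and 16.5 in SMA. The 6 values share their libraries and the order of ages, and many genes with a postnatal course would look alike over so few points.

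The promoter windows of Pls3 and Agrn are shown because these genes had the widest and the narrowest span between groups. The windows come from RefSeq on GRCm38.p6, run from 250 bases before to 50 bases after the transcript start, and are printed in the direction of the gene, here the minus strand. Capitals mark the letters CCAAT and GGGCGG on either strand, where GGGCGG reads CCGCCC on the other strand and neighbouring matches can overlap.
Pls3, chrX:75875133-75875432: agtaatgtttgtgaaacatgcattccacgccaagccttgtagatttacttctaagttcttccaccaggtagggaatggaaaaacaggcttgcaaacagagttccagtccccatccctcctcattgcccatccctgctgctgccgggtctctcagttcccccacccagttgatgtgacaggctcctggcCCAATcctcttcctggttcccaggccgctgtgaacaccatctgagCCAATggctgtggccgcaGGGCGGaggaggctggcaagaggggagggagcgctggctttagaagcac
Agrn, chr4:156197439-156197738: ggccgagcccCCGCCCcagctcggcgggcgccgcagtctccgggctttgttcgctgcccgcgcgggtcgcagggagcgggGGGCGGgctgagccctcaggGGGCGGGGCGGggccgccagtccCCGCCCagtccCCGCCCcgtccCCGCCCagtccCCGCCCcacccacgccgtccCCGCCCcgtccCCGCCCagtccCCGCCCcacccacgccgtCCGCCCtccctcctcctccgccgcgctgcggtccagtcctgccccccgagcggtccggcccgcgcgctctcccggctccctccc
The Pls3 window has 6 CpG dinucleotides and a GC content of 56.0%, and holds CCAAT at 2 places and GGGCGG at 1. The Agrn window has 42 CpG dinucleotides and a GC content of 83.3%, and holds no CCAAT and GGGCGG at 12 places. Of 32851 windows of this length, 37.4% hold CCAAT and 35.7% hold GGGCGG, and the median is 7 CpG dinucleotides. Windows were matched for 9 of the 10 genes, all but Ncald, with 42 CpG dinucleotides for Coro1c, 45 for Pfn2, 55 for Rock2, 30 for Tmem41b, 12 each for Tia1 and Uba1, and 9 for Zpr1. These matches describe the letters only.

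Coro1c encodes coronin 1C, an actin filament binding protein that associates with plastin 3 and restored motor axons in zebrafish with low Smn. The gene lies on chromosome 5 from 113842436 to 113908758, minus strand. In controls Coro1c had FPKM 29.4, 20.9 and 22.1 at P2, P6 and P10, and in SMA 27.4, 26.8 and 24.2. The values at P6 differed most, by a log2 ratio of 0.36 ± 0.86, which was not called. This ratio was 0.08 from the estimated counts, and the lower bound of the SMA interval at P6 was 0, so the difference at P6 rests on a wide estimate. Genes on the opposite strand overlap Coro1c, Rock2 and Ncald, and whether the counting used strand is not given in the sources used here.

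Pfn2 encodes profilin 2, the profilin of neurons, which delivers actin monomers and binds SMN, and Rock2 encodes a kinase activated by RhoA that phosphorylates actin regulators. Inhibitors of this kinase lengthened the life of mice with an SMA model. Pfn2 lies on chromosome 3 from 57841895 to 57848079, minus strand, and had FPKM 169.8, 157 and 175 in controls and 171, 175 and 190.4 in SMA at P2, P6 and P10. Rock2 lies on chromosome 12 from 16894895 to 16987823, plus strand, and had FPKM 13.0, 13.8 and 14.5 in controls and 12.1, 13.5 and 14.7 in SMA. The FPKM values of Rock2 were ordered by age in both genotypes, but its estimated counts in controls, 966, 1072 and 1039, were not. Its last SMA value is that of the P10 group, which goes against its label. Its log2 ratios of SMA to control were -0.11 ± 0.41, -0.04 ± 0.42 and 0.02 ± 0.41, and the 95% interval at P6 ran from -0.86 to 0.78. For Pfn2 the ratios were 0.01 ± 0.52, 0.16 ± 0.55 and 0.12 ± 0.64.

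Of 28 further actin regulators, 26 had a row of their own, and 0 were called in any comparison. Of the 26, 15, 21 and 11 had a higher value in SMA at P2, P6 and P10, against 49%, 60.1% and 55.6% of all genes tested, with median log2 ratios of 0.04, 0.12 and -0.01, against -0.01, 0.07 and 0.04 over all genes tested. Protein-coding genes alone were higher for 6316 of 11651, 8511 of 11805 and 5807 of 11791, with medians of 0.02, 0.11 and -0.0045. Actb, the main actin of nonmuscle cells, had FPKM 893, 765 and 738 in controls and 881, 815 and 705 in SMA. Cfl1, the actin-severing cofilin 1, had 308, 268 and 264 in controls and 299, 289 and 262 in SMA.

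Ncald encodes neurocalcin delta, a neuronal calcium sensor that restrains endocytosis, and low NCALD protects some people who lack SMN1. It lies on chromosome 15 from 37366175 to 37792570, minus strand. Its row had FPKM 50.1, 43.6 and 41.9 in controls and 48.5, 53.6 and 47.7 in SMA at P2, P6 and P10. The control values were lower at each later age, while the SMA value was highest at P6. The log2 ratios of SMA to control were -0.05 ± 0.48, 0.30 ± 0.49 and 0.19 ± 0.48, and none was called. Of 13 other calcium sensors and calcineurin genes, 11 had rows of their own, 0 were called, and 6, 11 and 6 had a higher value in SMA at P2, P6 and P10. Of all genes tested, 49%, 60.1% and 55.6% were higher, and their median log2 ratios were -0.01, 0.07 and 0.04, against 0.01, 0.15 and 0.02 for these 11. Among protein-coding genes alone, 6316 of 11651, 8511 of 11805 and 5807 of 11791 were higher, with medians of 0.02, 0.11 and -0.0045. Vsnl1, which encodes the sensor visinin-like 1, had FPKM 109, 120 and 125 in controls and 113, 133 and 130 in SMA. Ppp3ca, a catalytic subunit of the calcium-activated phosphatase calcineurin, had 75.5, 74.6 and 77.5 in controls and 75.8, 79.7 and 78.5 in SMA.

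Agrn encodes agrin, a proteoglycan that motor axons release to gather acetylcholine receptors on muscle. It lies on chromosome 4 from 156165290 to 156197488, minus strand. Agrn had FPKM 42.7, 39.9 and 37.8 in controls and 38.7, 40.3 and 41.9 in SMA, so FPKM was lower at each later age in controls and higher in SMA. Its estimated counts were 2322, 2036 and 2105 in controls and 2029, 1989 and 2168 in SMA, in neither case in order of age. The last SMA value of each is that of the P10 group, which goes against its label. The log2 ratios were -0.14 ± 0.69, 0.01 ± 0.67 and 0.15 ± 0.69, and their change from P2 to P10 was 0.29 ± 0.98; none was called. The neural exons of agrin, whose splicing is altered in SMN-deficient motor neurons, cannot be seen in a value per gene. Of 10 genes of the receptor side, 9 had rows of their own, and 6 of these, Musk, Rapsn, Chrna1, Chrnd, Chrne and Chrng, were under FPKM 1 in every group. Lrp4, the agrin receptor, had FPKM 6.82, 5.52 and 5.79 in controls and 6.91, 6.37 and 5.60 in SMA. Dok7, an activator of the receptor kinase MuSK, had 3.14, 2.50 and 3.54 in controls and 3.55, 2.72 and 3.21 in SMA. Levels allowed a test for 3 of the 9 genes at P2 and P6 and for 2 at P10, and 0 of those tested were called.

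Zpr1 encodes a zinc finger protein that binds SMN and is needed for its nuclear bodies, and Tia1 encodes an RNA-binding protein of stress granules that modifies the disease in mice. Zpr1 lies on chromosome 9 from 46273064 to 46282643, plus strand. Zpr1 had FPKM 6.22, 5.60 and 5.59 in controls and 7.47, 5.76 and 6.37 in SMA, with log2 ratios of 0.26 ± 0.79, 0.04 ± 0.75 and 0.19 ± 0.73. It was higher in SMA at 3 of 3 ages, like Pfn2, a pattern that 12.3% of genes tested at all ages showed, and 0 of the 10 genes were lower at 3 of 3 ages, against 5.91%. The direction of Zpr1 at P6 and of Pfn2 at P2 flipped when groups were scaled by their median ratio. Tia1 lies on chromosome 6 from 86404219 to 86433405, plus strand. The Tia1 row had FPKM 65.3, 62.2 and 56.6 in controls and 56.1, 57.3 and 62.0 in SMA, with the SMA value below control at P2 and P6 and above it in the P10 group that goes against its label, and log2 ratios of -0.22 ± 0.74, -0.12 ± 0.72 and 0.13 ± 0.70. Of 13 RNA factors linked to Zpr1 or Tia1, 8 had rows of their own and 0 were called. Hnrnpr, a partner of SMN in axons, had FPKM 40.0, 33.4 and 30.1 in controls and 40.4, 38.5 and 32.0 in SMA. Tardbp, which encodes TDP-43, had 31.8, 33.9 and 37.4 in controls and 36.5, 37.5 and 32.9 in SMA.

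Tmem41b, known as stasimon, encodes a lipid scramblase of the endoplasmic reticulum and carries a minor intron, whose splicing depends on SMN in flies and mice. It lies on chromosome 7 from 109972187 to 109986929, minus strand. Tmem41b had FPKM 22.7, 22.7 and 25.9 in controls and 27.5, 24.6 and 25.2 in SMA. The largest of its log2 ratios was 0.27 ± 0.51 at P2, where the 95% interval ran from -0.72 to 1.27, and the ratios at P6 and P10 were 0.12 ± 0.55 and -0.04 ± 0.49. A value per gene does not show how much of that intron was spliced. Of 6 related membrane proteins, 4 had rows of their own and 0 were called. Atg2b, a lipid transfer protein of autophagy, had FPKM 7.47, 7.73 and 8.69 in controls and 8.56, 8.30 and 8.02 in SMA, and Tmem64 had 7.36, 7.36 and 8.18 in controls and 7.10, 7.49 and 7.38 in SMA.

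Uba1 encodes the main enzyme that activates ubiquitin, and mutations of human UBA1 cause an X-linked form of SMA. It lies on chromosome X from 20658326 to 20683179, plus strand. Uba1 had FPKM 80.0, 65.5 and 60.1 in controls and 73.8, 67.9 and 65.4 in SMA, so values were lower at each later age in both genotypes. The SMA values start in the P2 group, which stands apart, and end in the P10 group, which goes against its label. The log2 ratio from P2 to P10 was -0.41 ± 0.49 in controls and -0.17 ± 0.50 in SMA, and SMA differed from control by -0.12 ± 0.49, 0.05 ± 0.48 and 0.12 ± 0.50. Of 9 enzymes that activate ubiquitin-like proteins, 8 had rows of their own and 0 were called, with 1, 8 and 4 higher in SMA at the 3 ages, against the same 49%, 60.1% and 55.6% of all genes tested, and medians of -0.10, 0.18 and -0.0043. For protein-coding genes alone, 6316 of 11651, 8511 of 11805 and 5807 of 11791 were higher, and the medians were 0.02, 0.11 and -0.0045. Uba2, which activates SUMO, had FPKM 30.6, 26.0 and 30.0 in controls and 29.8, 29.4 and 28.8 in SMA. Uba3, which activates NEDD8, had 26.0, 23.3 and 26.5 in controls and 25.6, 26.3 and 26.7 in SMA.

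Pls3 and Uba1 are X-linked, and the groups differed in Y-linked expression, which was looked up after the values were seen. Ddx3y, a Y-linked RNA helicase, had FPKM 17.9, 4.92 and 13.1 in controls and 6.82, 14.9 and 6.63 in SMA at P2, P6 and P10. Eif2s3y, Uty and Kdm5d were likewise lower in SMA than in control at P2 and P10 and higher at P6. The part of a different mix of sexes in the values of Pls3 and Uba1 was not tested.

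**Figure D4:**
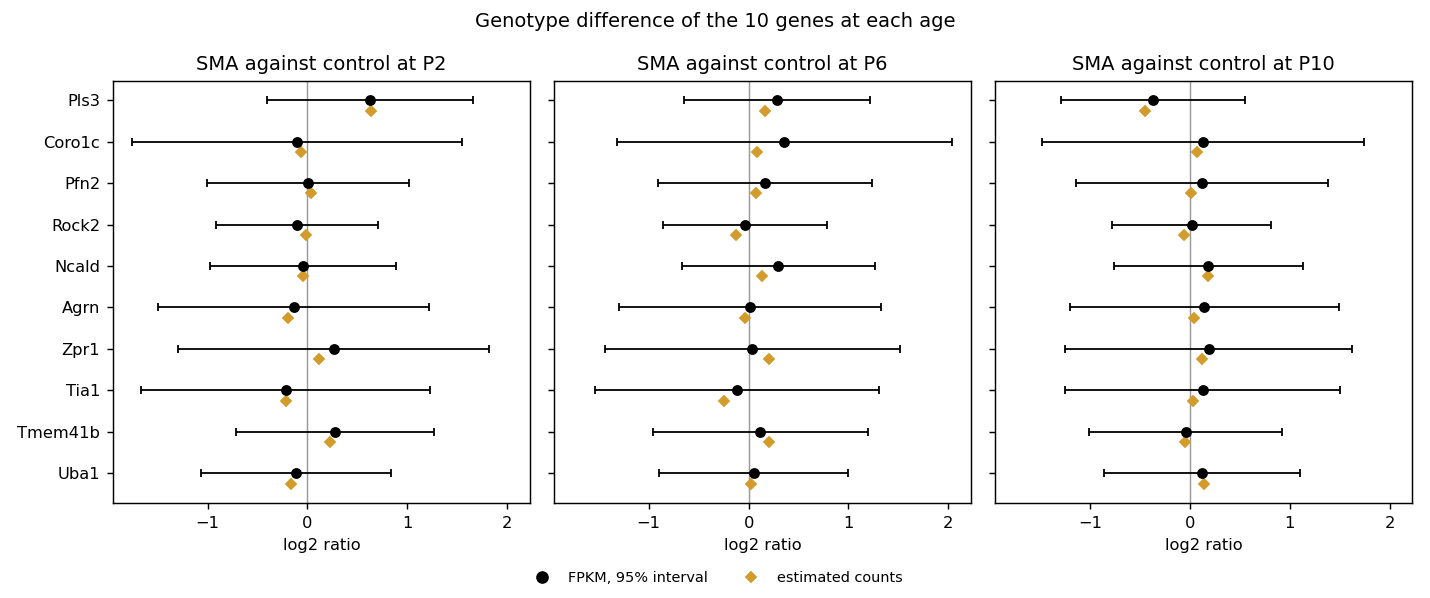
The log2 ratio of SMA to control is plotted for the 10 genes at P2, P6 and P10 as black points with 95% intervals from FPKM, and as gold diamonds from the estimated counts. Every interval spans 0, and the point farthest from 0 is Pls3 at P2, at 0.63.

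At each age the genes were then set beside all genes. With the z test, 0 of 10 were called at any age, against 0.126%, 0.0458% and 0.0397% of genes tested at P2, P6 and P10. The genes called between P2 and P10 were 0 of 10 in controls, against 0.631% of genes, and 0 of 10 in SMA, against 0.0602%, and for the change of the SMA difference 0 of 10, against 0.0574%. With an unadjusted p under 0.05 there were 0 of 10 at each age, against 0.743%, 0.168% and 0.213% of genes. Between P2 and P10 there was 1 in controls, Pls3, against 3.51%, and 0 in SMA, against 0.331%, and for the change of the SMA difference 0, against 0.894%. The standard errors of the 10 log2 ratios between genotypes were 0.41 to 0.86, so that ratios within 1.73-fold for the most precise gene and 3.21-fold for the least precise lay inside the interval. Differences of the size seen here were therefore not detectable by the z test with these intervals. The robust standard deviation of z was 0.27, 0.26 and 0.29 at P2, P6 and P10, where about 1 is expected without differences. The intervals are thus wide beside the scatter between groups, and the z test is conservative.

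The numbers of genes with a higher value in SMA were 4, 8 and 8 of 10 at P2, P6 and P10, against 49%, 60.1% and 55.6% of genes tested. The median log2 ratios of the 10 were -0.08, 0.08 and 0.13. Protein-coding genes alone, the class of all 10, were higher in SMA for 6316 of 11651, 8511 of 11805 and 5807 of 11791 at these ages. Scaling groups by their median ratio moved the level of all genes by 0.11 on the log2 scale between the genotypes at P6. With that scaling, 3, 5 and 7 of 10 genes were higher at P2, P6 and P10, against 44.8%, 41.6% and 52.9% of all genes tested. A lower value at P2 with a higher value at P10 was found for 6 of 10 genes, namely Coro1c, Rock2, Ncald, Agrn, Tia1 and Uba1, against 37.4% of genes tested. The direction of Rock2 at P10 flipped to below 0 from the counts and under the median ratio scaling. The reverse was found for Pls3 and Tmem41b, against 30.9%. Both patterns are built on SMA at P2, which stands apart, and on the group labelled SMA at P10, which goes against its label. They are therefore differences between these groups and not a test of the genotypes' courses. Comparisons within a genotype and between genotypes share the same groups, so these counts are not independent of each other.

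Across the 3 ages, a linear model fitted with limma, in which the 3 ages stand in for repeats, called 0 of 10 genes, against 0.00455% of 21960 genes tested, and had 0 of 10 with an unadjusted p under 0.05, against 2.05%. Differences on the log2(FPKM + 1) scale were 0.16 ± 0.18 for Pls3, 0.14 ± 0.10 for both Ncald and Zpr1, 0.12 ± 0.11 for Coro1c and 0.11 ± 0.10 for Tmem41b. Values nearest 0 were those of Agrn (0.01 ± 0.10) and Uba1 (0.02 ± 0.09). The adjusted p was 0.999 for each of the 10. Without the P10 groups, whose SMA group goes against its label, Pls3 differed by 0.41 (adjusted p = 0.707), and without the P2 groups by -0.04 (adjusted p = 1.00). The latter fit joins a log2 FPKM ratio of 0.29 at P6 with -0.37 at P10, so the direction of Pls3 across ages depends on which ages enter. Fits without an age have fewer residual degrees of freedom than the fit of all ages. At an unadjusted p under 0.05, limma without the P10 groups had 1 of the 10 genes, against 1344 of 20720 genes tested. Without the P2 groups it had 0, against 624 of 21426, and without the P6 groups 0, against 311 of 21293.

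Of 14 other genes linked to the severity of SMA, 12 had rows of their own, of which 11 were tested at P2 and 10 each at P6 and P10, and 0 were called. Higher values in SMA were found for 4, 9 and 6 of those tested, against 49%, 60.1% and 55.6% of all genes tested. Of protein-coding genes, 6316 of 11651, 8511 of 11805 and 5807 of 11791 were higher. Gap43, a growth-associated protein of axons, had FPKM 244, 149 and 83.3 in controls and 173, 178 and 161 in SMA, so the SMA value was lower at P2 and higher in the P10 group that goes against its label. Its SMA difference changed by 1.45 ± 0.70 on the log2 scale from P2 to P10 (adjusted p = 1.00). Uchl1, a neuronal ubiquitin hydrolase, had 242, 181 and 157 in controls and 221, 216 and 181 in SMA. Chodl, also among the motor neuron markers, had FPKM 14.2, 14.2 and 13.6 in controls and 8.25, 9.57 and 9.16 in SMA. It was lower in SMA at each age, by log2 ratios of -0.78 ± 0.48, -0.57 ± 0.45 and -0.57 ± 0.46, and was not called. Over the 7 lists, 0 of 77 genes with rows of their own were called in the comparisons for which their levels allowed a test. Of all genes tested, the z test called 0.0397% to 0.631% per comparison and limma 0.00455%. The 0 calls in each list are near these shares and are not a result about the lists.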

How the data were processed

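Libraries came from total RNA depleted of ribosomal RNA, by a strand-specific kit, per the labels' protocols. Per the submitters' processing notes, the tools were FastQC, TopHat2 2.1.1 with Bowtie2 2.2.4, Picard, Cuffdiff and Cufflinks 2.2.1, and the build was GRCm38; the annotation, the strand setting and the library normalization are not given in the sources used here. The deposited values are FPKM per gene and group with a model interval, and a second table deposited by the authors holds estimated counts with a model variance. Both combine the 3 libraries of a group; their totals are nearly equal, so no count model was fitted. The libraries are not stated to be separate mice.

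Log ratios of FPKM between groups were tested with a z test, two-sided. Each FPKM got its standard error by subtracting it from its upper bound and dividing by 1.96. A gene entered the test with an OK status, no value of 0 and at least 1 of the compared groups at FPKM 1 or above. A call is an adjusted p under 0.05 (Benjamini-Hochberg, over every gene tested). The robust standard deviation of z was 0.262 to 0.47, below the value near 1 expected without differences, so the test is conservative and calls few genes. limma 3.58.1 in R 4.3.3 was fitted to log2(FPKM + 1) of the 6 groups with age as a factor, leaving 2 residual degrees of freedom. Python 3.11.15 with numpy 2.4.6, scipy 1.17.1, pandas 2.3.3 and matplotlib 3.10.9 did the rest. Both tests were tested on simulated data. Identifiers and coordinates are those of GENCODE, on the same build.

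Alternatives were the counts, intervals that do not overlap, other filters, the interval read as that of 1 of 3 libraries, median ratio scaling, pseudocounts of 1 (z test) and 0.1 (limma), and leaving out each age. The 10 genes and the lists were chosen with earlier results of these data known. Named genes are the 10, list genes that were called or differed 1.5-fold in the same direction at all ages, otherwise the 2 most abundant of a list, and the 2 nearest profiles of a gene that changed 1.5-fold in controls. Relatives under other observations, Gm15941, C87436, Gm44790, Rnf13, Chodl, the list genes under FPKM 1 and the Y-linked genes were named after their values were seen.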

Additional observations from a re-analysis of the deposited data

How the results depend on the processing

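No paired analysis was possible because the tables hold 1 combined value per group, and no replicate could be left out for the same reason. Calls among the 10 genes stayed at 0 under every alternative except 1: with the interval read as that of 1 of 3 libraries, 1 gene, Pls3, was called between P2 and P10 in controls. In that setting 920 of 19956 genes tested were called. Of 300 values of single genes under the alternatives, 281 kept their direction and their side of the threshold and 18 changed sign.

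With the counts, the sign changed for Agrn at P6 (-0.0334), Rock2 at P10 (-0.0529), Pfn2 (-0.0173) and Tia1 (-0.0475) between P2 and P10 in SMA, and for the change of the SMA difference in Pfn2 (-0.0205), Rock2 (-0.0342) and Zpr1 (0.00601). With median ratio scaling it changed for Pfn2 at P2 (-0.0197), Agrn (-0.10), Zpr1 (-0.0729) and Uba1 (-0.0598) at P6, Rock2 at P10 (-0.00044), and across ages for Agrn (-0.0455) and Uba1 (-0.0346). Across ages without P10, Agrn was -0.0613 and Uba1 -0.0321, and without P2, Pls3 was -0.0420 and Tia1 0.00601. The cause was not tested.

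Over all genes, calls were 24 at P2, 9 at P6, 8 at P10, 126 and 12 between P2 and P10 in control and SMA, and 12 for the change of the SMA difference. With the interval of 1 library they were 123, 26, 22, 920, 44 and 163. Intervals were apart for, in the first 5 of these, 44, 23, 16, 272 and 22. With the counts they were 0 at P6, 0 at P10, 216 in control, 2 in SMA and 23 for the change; at an unadjusted p under 0.05 the counts gave 8 at P6 and 29 at P10. At FPKM 5 or more the change gave 20. The limma fit called 1 gene, 0 at FPKM 5 or more and 0 with median ratio scaling (173 and 439 at an unadjusted p under 0.05), 6 without P10, 12 without P2 and 15 without P6.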

Other observations

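Relatives of the 10 genes in the same protein families were also measured, and of the other plastins, Pls1 but not Lcp1 had values in SMA on the same side of control as Pls3 at each age. Pls1, the plastin 1 gene, had FPKM 0.851, 1.07 and 1.65 in controls and 1.36, 1.29 and 1.24 in SMA at P2, P6 and P10, so that it was above control at P2 and P6 and below it at P10, like Pls3. The mean FPKM of Pls3 was 9.20 times that of Pls1, with intervals apart in 6 of 6 groups. Its log2 ratios of SMA to control were 0.68, 0.27 and -0.41. Lcp1, the plastin of blood cells, had mean FPKM 4.28 and was lower in SMA at each age, by log2 ratios of -0.12, -0.22 and -0.46. Neither gene was called in any comparison by the z test.

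Profilin 1 (Pfn1) had mean FPKM 77.7 against 173 for Pfn2, with intervals overlapping in every group. Rock1 had 4.35 against 13.6 for Rock2, with intervals apart in 6 of 6 groups. The mean FPKM of Uba6, a second enzyme that activates ubiquitin, was 7.52 against 68.8 for Uba1, with intervals apart in 6 of 6 groups. Hpca, the calcium sensor hippocalcin, had mean FPKM 45.0 against 47.6 for the row of Ncald, with intervals overlapping in every group. Tial1, the relative of Tia1, had 33.2 against 59.9 for the Tia1 row, also with intervals overlapping in every group.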
